A study of Mus musculus with 14 samples.

Results

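Replication-dependent histone genes are the clustered genes that supply the bulk of the histones H1, H2A, H2B, H3 and H4 during DNA synthesis. They were taken as the protein-coding genes of the GENCODE annotation for the mouse genome GRCm38 (mm10) whose names begin with Hist1h, Hist2h, Hist3h or Hist4h. This gave 67 of 21755 protein-coding genes on chromosomes 1 to 19 and X. A site was assigned to a gene if its middle lay within 1 kb of any annotated transcription start site (TSS). The genes comprised 6 for H1, 18 for H2A, 18 for H2B, 12 for H3 and 13 for H4, with the type read from the gene name. By position, 54 were on chromosome 13, 10 on chromosome 3, 2 on chromosome 11 and 1 on chromosome 6.

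The cells were immortalised mouse embryo fibroblasts (iMEF) of the clone NG3. In all of them exon 4 of both floxed Ash2l alleles had been deleted through Cre-ER, and all expressed a lentiviral fusion of an FKBP degradation tag, HA tags and human ASH2L. ASH2L is a subunit of the complexes that methylate lysine 4 of histone H3, and dTAG-13 recruits a ubiquitin ligase to the tag so that the fusion protein is degraded. Chromatin immunoprecipitation and sequencing (ChIP-seq) was carried out for H3K27ac, the acetylation of lysine 27 on histone H3, which is found at promoters and enhancers in use. There were 2 H3K27ac libraries from control cells and 2 each from cells treated with dTAG-13 for 30 min, 2 h, 4 h, 8 h and 16 h. Input chromatin was sequenced in 1 library from control cells and 1 from cells treated for 16 h. All cells came from a single clone, so that clone and genotype cannot be told apart.

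The values analysed were the positions of 122228 H3K27ac sites, joined from all samples, without a read count, a score or a time point for any of them. The depth behind a site was unknown, no value below has a replicate error, and no time point was compared with control. Presence and width of a site describe the joined list. Intervals are 95% Wilson intervals that cover counting error only, and neighbouring genes that share sites are not independent. Of 11 fibroblast marker genes, 8 had a site within 1 kb. Dcn, Col1a1 and Prrx1 did not, although the 5′ end of Col1a1 and Prrx1 was inside a wide site. The epithelial genes Epcam and Cdh1, the blood gene Ptprc, the endothelial gene Pecam1 and the pluripotency genes Pou5f1 and Nanog had none, whereas the endothelial gene Cdh5 had a site of 745 bp.

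Most replication-dependent histone genes have no intron and end in a conserved stem-loop in place of a poly(A) tail. The stem-loop is bound by the stem-loop binding protein Slbp, and the U7 snRNP directs cleavage of the transcript just after it. NPAT gathers at the histone clusters in histone locus bodies and switches the genes on as cells enter S phase. Many H2A and H2B genes lie head to head and are transcribed away from a short shared promoter region.

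The shared promoter regions of divergent pairs are shown first, since the sites lay on either side of them. Each sequence runs from the base after the 5′ end of the gene on the minus strand to the base before the 5′ end of the gene on the plus strand. It is from GRCm38.p6 as given by RefSeq. Capitals mark TATAAA (the TATA box), the CCAAT box and GCAAAT (the core of the octamer bound by OCT1), each on either strand. The first pair had the shortest distance, the second lies on chromosome 3, and the last pairs, which are near copies of each other, had no site.
Hist1h2ae to Hist1h2bg, chr13:23571221-23571395, plus strand: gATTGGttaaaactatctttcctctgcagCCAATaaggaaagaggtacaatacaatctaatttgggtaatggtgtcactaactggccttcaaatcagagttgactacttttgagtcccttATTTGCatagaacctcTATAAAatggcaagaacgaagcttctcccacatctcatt
Hist2h2ac to Hist2h2be, chr3:96220881-96221118, plus strand: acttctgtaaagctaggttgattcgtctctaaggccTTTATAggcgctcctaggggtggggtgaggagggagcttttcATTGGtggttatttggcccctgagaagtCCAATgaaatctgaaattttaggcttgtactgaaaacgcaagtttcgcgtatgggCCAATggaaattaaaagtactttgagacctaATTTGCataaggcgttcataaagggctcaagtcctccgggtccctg
Hist1h2bq to Hist1h2ao, chr13:21810198-21810464, plus strand: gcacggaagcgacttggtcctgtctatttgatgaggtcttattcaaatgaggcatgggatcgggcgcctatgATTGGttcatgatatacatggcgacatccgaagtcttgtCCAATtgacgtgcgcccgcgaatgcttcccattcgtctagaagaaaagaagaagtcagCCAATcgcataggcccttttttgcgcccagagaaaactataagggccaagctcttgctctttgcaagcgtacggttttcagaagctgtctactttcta
Hist1h2ap to Hist1h2br, chr13:21833508-21833742, plus strand: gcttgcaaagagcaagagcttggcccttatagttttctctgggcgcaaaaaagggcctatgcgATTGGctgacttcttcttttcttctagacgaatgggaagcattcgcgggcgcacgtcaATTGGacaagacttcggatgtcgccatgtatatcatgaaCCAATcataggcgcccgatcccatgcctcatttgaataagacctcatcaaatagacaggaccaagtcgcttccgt

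The sequences immediately before the 5′ end are shown for genes of the other types and for genes without a site. The H1 genes Hist1h1c and Hist1h1e carried the H1 box, the H4 genes Hist1h4c and Hist1h4d the H4 element, and Hist3h2ba and Hist1h2ba had no site. Capitals mark the motifs above and, in addition, AAACACA (H1 box) and GGTCC (core of the H4 element), on either strand. Each is 150 bases long and is written in the direction of transcription.
Hist1h1c, chr13:23738658-23738807, plus strand: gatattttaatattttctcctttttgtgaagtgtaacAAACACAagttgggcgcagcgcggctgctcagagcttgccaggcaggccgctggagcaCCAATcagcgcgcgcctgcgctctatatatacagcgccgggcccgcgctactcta
Hist1h1e, chr13:23622559-23622708, minus strand: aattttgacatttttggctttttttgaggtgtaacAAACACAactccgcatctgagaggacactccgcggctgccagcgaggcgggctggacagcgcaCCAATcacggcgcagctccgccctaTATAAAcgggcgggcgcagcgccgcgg
Hist1h4c, chr13:23698455-23698604, minus strand: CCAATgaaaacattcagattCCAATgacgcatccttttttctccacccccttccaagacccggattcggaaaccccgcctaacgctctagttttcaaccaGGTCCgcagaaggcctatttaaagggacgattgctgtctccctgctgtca
Hist1h4d, chr13:23581448-23581597, plus strand: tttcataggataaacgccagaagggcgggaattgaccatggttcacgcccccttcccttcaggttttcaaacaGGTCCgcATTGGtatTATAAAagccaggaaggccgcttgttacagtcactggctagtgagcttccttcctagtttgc
Hist3h2ba, chr11:58948770-58948919, plus strand: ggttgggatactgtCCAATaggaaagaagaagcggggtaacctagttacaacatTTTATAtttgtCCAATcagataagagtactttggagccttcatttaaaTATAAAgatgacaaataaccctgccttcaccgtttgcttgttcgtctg
Hist1h2ba, chr13:23934157-23934306, minus strand: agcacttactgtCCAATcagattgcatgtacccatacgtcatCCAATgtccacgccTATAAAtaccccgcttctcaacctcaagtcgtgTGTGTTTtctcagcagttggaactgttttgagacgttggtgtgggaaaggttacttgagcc

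H3K27ac sites were found at 60 of the 67 histone genes (89.6%, interval 80.0 to 94.8%), whereas 54.7% of all protein-coding genes had a site. Of 1226 other intronless protein-coding genes, 240 (19.6%) had one. The 5′ end itself was inside a site in 40 histone genes (59.7%, interval 47.7 to 70.6%), compared to 36.5% of all protein-coding genes. A site was thus near the start of most of these genes, and in 20 of the 67 it lay within 1 kb without covering the 5′ end.

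Together, these genes had 83 distinct sites, and 29 of the sites were near the TSS of more than 1 histone gene. Of these, 26 were shared by 2 genes and 3 by 3 genes. A single site was found at 14 genes, 2 sites at 38, 3 sites at 7 and 4 sites at Hist1h2ah. These sites were 593 bp wide at the median (quartiles 373 and 854.5 bp), compared to a median of 740 bp for sites at all protein-coding genes. This direction turned when sites less than 1 kb apart were merged, which gave 2322.5 bp at histone genes and 1478 bp at all protein-coding genes. The widest site measured 1777 bp and was at Hist1h1b, which encodes a linker histone H1. The narrowest, of 200 bp, was near Hist1h2bk and its divergent partner Hist1h2ah. None of the 83 sites exceeded 2000 bp and 13 exceeded 1000 bp.

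At the limit of 1 kb, the site of 929 bp near Hist1h2ah had its middle exactly 1000 bp from the TSS, and a site of 240 bp near Hist1h2ae had it at 992.5 bp. Just outside were a site of 1644 bp near Hist2h4, at 1009.5 bp, and a site of 352 bp near Hist1h4b, at 1026.5 bp. All 4 genes had other sites within the limit, so that none of them changed its call there.

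The shares of the histone types did not differ beyond their intervals. H1, H3 and H4 genes had a site in 6 of 6, 12 of 12 and 13 of 13 cases. H2A genes had a site in 15 of 18 cases (83.3%, interval 60.8 to 94.2%) and H2B genes in 14 of 18 (77.8%, interval 54.8 to 91.0%). These intervals overlap those of the other types, which began at 75.8% for H3 and 77.2% for H4 and reached lower for H1. All 7 genes without a site were thus H2A or H2B genes, and 6 of them belonged to divergent H2A and H2B pairs.

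The types also differed in where the site lay, within wide intervals. The 5′ end was inside a site in 10 of 13 H4 genes (76.9%, interval 49.7 to 91.8%), 12 of 18 H2A genes (66.7%) and 11 of 18 H2B genes (61.1%). It was inside in 3 of 6 H1 genes and in 4 of 12 H3 genes (33.3%, interval 13.8 to 60.9%). The intervals for H3 and H4 overlapped, and these counts depend on the annotated start. In the H3 genes Hist1h3d and Hist1h3c a site began only 3 and 17 bp after the 5′ end. With RefSeq starts, the 5′ end of Hist1h3c was inside a site, whereas those of the H4 genes Hist1h4b and Hist1h4d were not. The H3 and H4 shares thus lay closer together with RefSeq starts. The distinct sites assigned within 1 kb of a TSS had a median width of 527 bp at H1, 592.5 bp at H2A, 611.5 bp at H2B, 602 bp at H3 and 606 bp at H4 genes. A different order was seen when only the site with the largest overlap with the coding sequence was kept for each gene. Its width had a median of 1417 bp at H1 genes, 776 bp at H4, 680 bp at H2A, 629.5 bp at H2B and 602 bp at H3 genes.

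**Figure D1:**
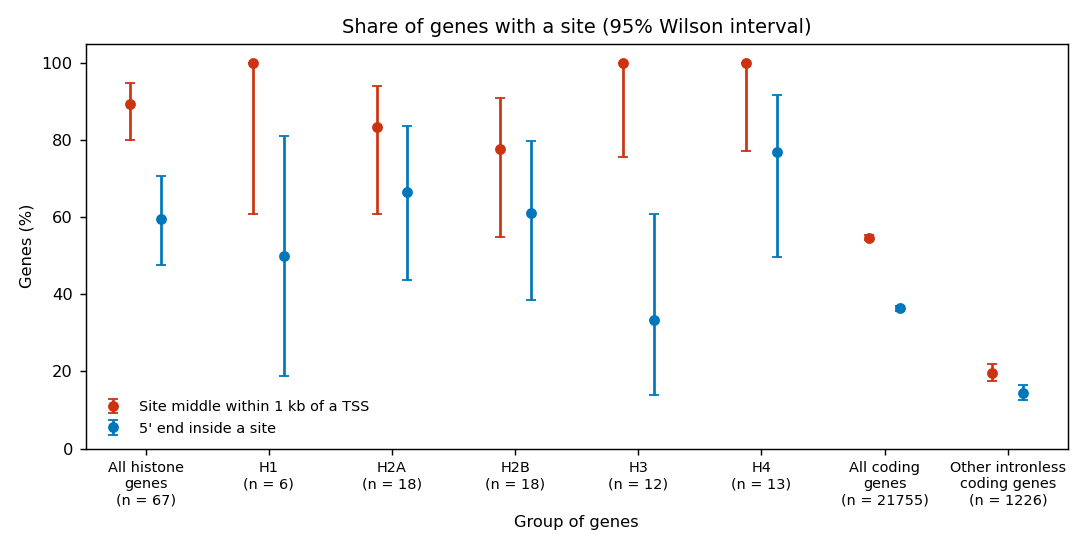
Share of genes with a site middle within 1 kb of a TSS (red) and with the 5′ end inside a site (blue), in percent, for all 67 histone genes, each histone type, all protein-coding genes and other intronless coding genes; points are shares and bars 95% Wilson intervals. Every H1, H3 and H4 gene had a site, and the 5′ end was inside a site in 33.3% of H3 and 76.9% of H4 genes, with overlapping intervals.

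The sites began just before the coding sequence and covered it. Of all coding bases of the 67 genes, 77.2% lay in sites, compared to 7.50% of the coding bases of all protein-coding genes. The coding sequence was wholly inside sites in 46 genes (68.7%), compared to 2.01% of all protein-coding genes and 9.54% of other intronless ones. Histone coding sequences are short, and a share of bases depends on the length of the gene. The coding start was inside a site in 47 genes (70.1%, compared to 36.0% of all protein-coding genes). In these 47 genes the upstream edge of that site had a median position of 75 bp before the coding start, whereas it was 368 bp before it for all protein-coding genes. The edge lay within 150 bp of the coding start in 42 of the 47 (89.4%), compared to 31.1% of all protein-coding genes and 21.1% of other intronless ones.

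Single genes show this arrangement. At Hist1h2bg, an H2B gene, a site of 610 bp ran from 97 bp before to 512 bp after the coding start. At Hist1h2ab, an H2A gene, a site of 668 bp ran from 107 bp before to 560 bp after it. At the H3 gene Hist1h3c a site of 623 bp ran from 88 bp before to 534 bp after, and at the H4 gene Hist1h4b a site of 700 bp ran from 68 bp before to 631 bp after. In each of these genes the site covered the whole coding sequence and ended within 700 bp of its start.

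H1 genes encode the linker histones. The site over Hist1h1b measured 1777 bp, that over Hist1h1c 1706 bp, that over Hist1h1d 1557 bp, with its middle more than 1 kb from the annotated TSS, and that over Hist1h1e 1277 bp. Hist1h1a had 697 bp. Hist1h1t, known as the testis form of H1, had a single site of 219 bp between 83 and 301 bp after the coding start, which covered 34.9% of its coding bases.

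Several H3 genes had a site that began inside the coding sequence. It began 225 bp after the coding start in Hist1h3h, 230 bp in Hist1h3b, 57 bp in Hist1h3i, 306 bp in Hist2h3c2 and 446 bp in Hist2h3c1. The other 7 H3 genes had the coding sequence wholly in sites. Much of the coding sequence of H3 genes was repeated in the genome, counted in windows of the read length. The repeated share was 94.3% in Hist1h3h, 95.2% in Hist1h3b, 79.0% in Hist1h3i and 100% in Hist2h3c2 and Hist2h3c1. In the 7 wholly covered genes it ranged from 53.0% in Hist1h3a to 93.7% in Hist2h3b. Whether reads that could not be placed account for the later start was not tested. Among H4 genes, Hist1h4j and Hist1h4k, near copies of each other, had sites that began 778 and 490 bp before the coding start, farther upstream than in any other histone gene.

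**Figure D2:**
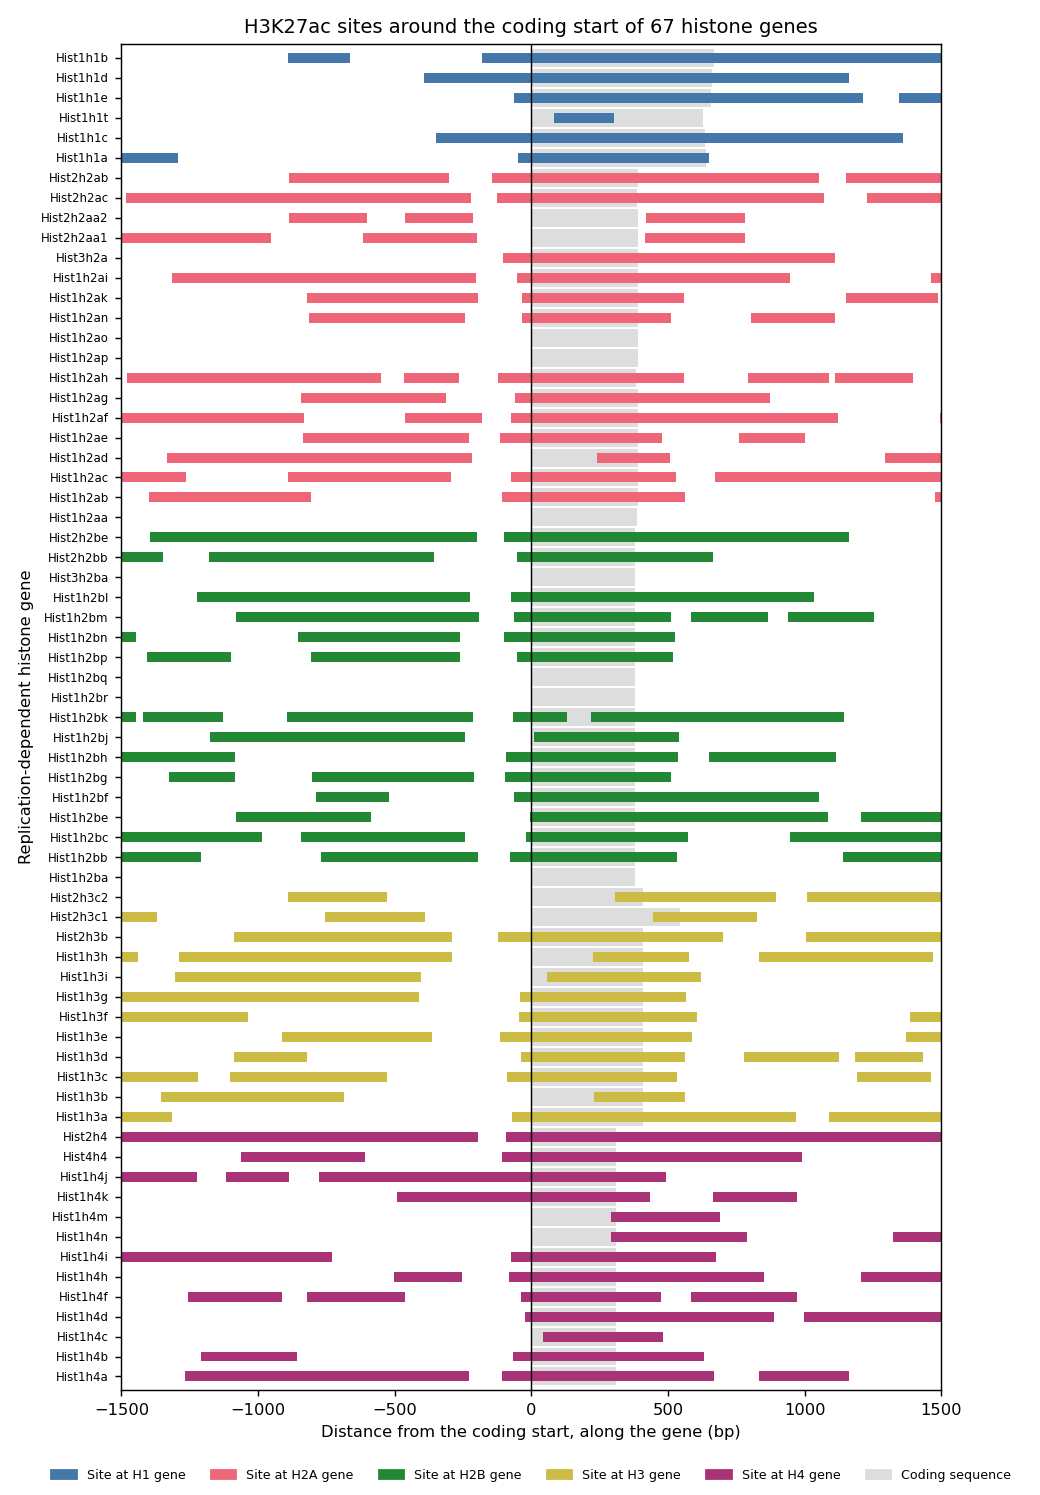
H3K27ac sites (coloured by histone type) around the coding start of each of the 67 histone genes, with the distance along the gene in bp on the horizontal axis and grey bars for the coding sequence. Most sites over the coding sequence begin within 150 bp of the coding start, a stretch just upstream is mostly free of sites, and 7 genes lack a site within 1 kb of a TSS.

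Upstream of the 5′ end was a narrow stretch with few sites. At 120 bp before the 5′ end, only 5 of the 60 genes with a site (8.33%) were covered, compared to 53.6% of the 11908 protein-coding genes with a site and 54.6% of other intronless genes with a site. This position was chosen as the lowest of the histone genes within 500 bp upstream. All protein-coding genes with a site had a shallower dip, from 62.5% at 260 bp to 49.5% at 60 bp before the 5′ end. Cover of histone genes rose to 66.7% at the 5′ end, where all protein-coding genes with a site had 65.7%. It reached 90% at 400 bp after the 5′ end. On the other side of the gap, cover was 58.3% at 500 bp before the 5′ end, compared to 49.5% of all protein-coding genes with a site, and 48.3% at 1000 bp, compared to 20.3%. Positions were examined every 20 bp.

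The gap was not limited to divergent pairs. At 120 bp before the 5′ end, 1 of 20 paired genes with a site (5.00%) and 4 of 40 unpaired genes with a site (10.0%) were covered. By type, 0 of 14 H2B genes, 0 of 12 H3 genes, 2 of 15 H2A genes, 2 of 13 H4 genes and 1 of 6 H1 genes were covered there. At 200 bp after the 5′ end the counts were 13, 7, 12, 11 and 5. All 5 types thus had less cover at the first position, which was chosen as the lowest of the histone genes, than at the second. This did not hold farther out. At 1000 bp before the 5′ end, cover was 58.3% for H3 and 53.8% for H4, but 41.7% and 23.1% at 1000 bp after it. H1 and H2A genes had more cover after it at that distance, and H2B genes had 50% on either side.

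**Figure D3:**
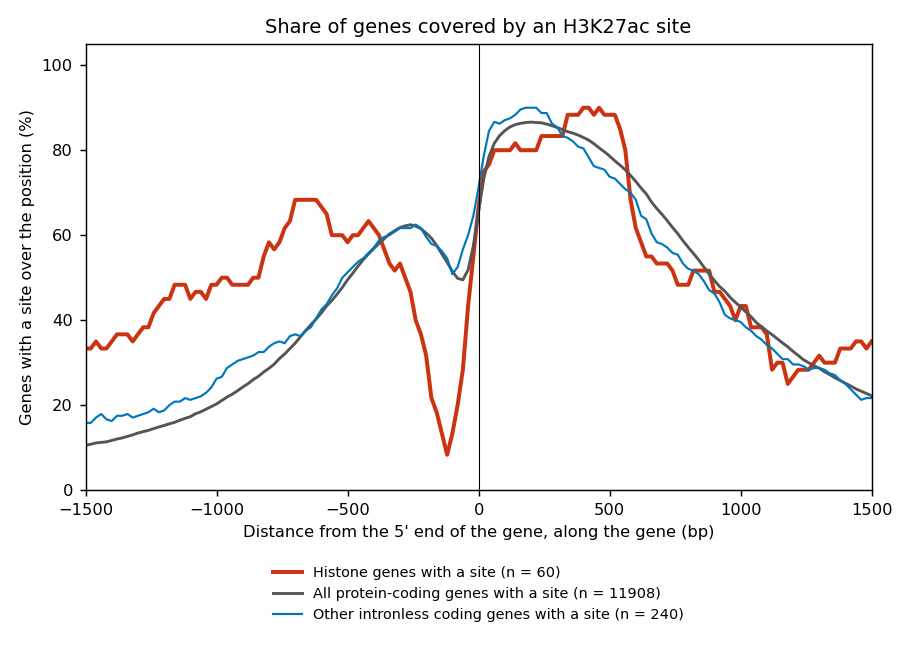
Percent of genes with a site over each position, every 20 bp, against the distance from the 5′ end along the gene in bp, for the 60 histone genes with a site (red), the 11908 protein-coding genes with a site (grey) and 240 other intronless coding genes with a site (blue). The red line falls to 8.33% at 120 bp upstream, where the grey line stands at 53.6%.

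Divergent pairs made up 26 of the 67 genes. These were 13 head-to-head pairs of histone genes less than 1 kb apart, with 176 to 660 bp between the 5′ ends and a median of 268 bp. Of these, 12 paired an H2A with an H2B gene and 1 paired Hist1h2bh with Hist1h3f. In 10 pairs the genes had sites, and in all 10 pairs both genes shared at least 1 of them. The middle between the 5′ ends was inside a site in 0 of the 10 pairs, whereas it was inside in 320 of 679 other divergent protein-coding pairs with a site (47.1%). The gap over the middle measured 98 to 992 bp, with a median of 185 bp.

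In the Hist1h2ae and Hist1h2bg pair, whose 5′ ends were 176 bp apart, a site of 592 bp ended 2 bp past the 5′ end of Hist1h2ae and a site of 610 bp began 60 bp before that of Hist1h2bg. This left 113 bp of the printed sequence without a site. In the Hist2h2ac and Hist2h2be pair, sites of 1197 and 1261 bp reached 88 and 52 bp into the space between the genes and left 98 bp. In the Hist1h2ac and Hist1h2bc pair, sites of 603 and 596 bp left 220 bp. The widest gap, of 992 bp, was between Hist1h2bh and Hist1h3f, where the annotated 5′ end of Hist1h3f was 433 bp before its coding start. Each pair with sites thus carried a site over each gene and none over the middle.

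**Figure D4:**
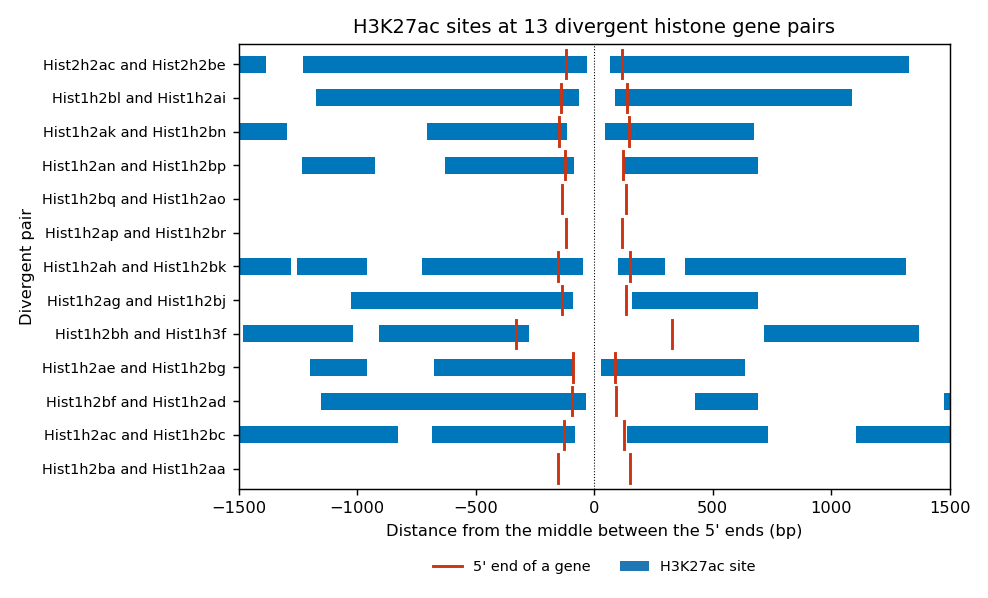
H3K27ac sites (blue bars) around the middle between the 5′ ends (red ticks) of the 13 divergent histone gene pairs, in bp of distance on the horizontal axis. No site crosses the middle in the 10 pairs with sites, the gap over it measured 98 to 992 bp, and 3 pairs have no site in the window.

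The sub-clusters differed in the genes that lacked a site. Genes were put in the same sub-cluster if neighbouring 5′ ends were at most 250 kb apart. The first sub-cluster on chromosome 13 (chr13:21716143-22043214) had 23 genes, of which 19 (82.6%, interval 62.9 to 93.0%) had a site. The second (chr13:23531050-23934462) had 31 genes, of which 29 (93.5%, interval 79.3 to 98.2%) had a site. On chromosome 3 (chr3:96219865-96269752) all 10 genes had one, on chromosome 11 (chr11:58948920-58954685) 1 of 2 had one, and Hist4h4, alone on chromosome 6, had 2. The intervals of the sub-clusters overlapped.

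The median width of the distinct sites was 572.5 bp in the first sub-cluster on chromosome 13, 601 bp in the second and 589 bp on chromosome 3. The 5′ end was inside a site in 13 of 23 (56.5%), 19 of 31 (61.3%) and 6 of 10 genes (60%). Counted per gene, the site over the coding sequence had a median width of 1009.5 bp over 8 genes on chromosome 3. It was 628 bp over 19 genes and 652 bp over 29 genes in the sub-clusters on chromosome 13. On chromosome 3, Hist2h2ab and Hist2h2ac shared a site of 1197 bp, which counted for each of them. The 7 distinct sites there measured 380, 591, 719, 822, 1197, 1261 and 1700 bp, with the narrowest at Hist2h3c1 and the widest at Hist2h4. Genes in the same sub-cluster therefore ranged more widely than the medians of the sub-clusters.

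The genes of other families within these clusters were mostly without a site. Of 10 such protein-coding genes, 3 had a site. Trim17 started at the same position as Hist3h2a and shared its site of 1215 bp, the zinc finger gene Zfp184 had a site of 1238 bp, and Hfe, a regulator of iron uptake, had a site of 948 bp. The sodium phosphate transporter genes Slc17a1, Slc17a2, Slc17a3 and Slc17a4 had none, nor did Pom121l2, Prss16 and Trim38.

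The 7 genes without a site fell into 3 divergent pairs and the single gene Hist3h2ba. Hist1h2ba and Hist1h2aa, known as testis forms of H2B and H2A, were at the end of the second sub-cluster. The nearest site middle was 84330 and 84024 bp away. For Hist3h2ba (chr11:58948920-58949533), an H2B gene, it was 6321 bp away. For Hist1h2bq, Hist1h2ao, Hist1h2ap and Hist1h2br it was 2078, 1810, 1888 and 2124 bp away. These 4 genes lay between Hist1h2bp and Hist1h2ah in the first sub-cluster, and the promoter of each was identical to that of another over 250 bases, as was the coding sequence.

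Histone genes are close copies of each other, and reads from identical sequence cannot be placed at a single position. The reads of this study were 75 bases long. Of all 75-base windows within 1 kb of the 5′ end, 24.2% occurred more than once in the genome at histone genes, compared to 5.13% at all protein-coding genes. The median gene had 16.0%, compared to 0 for all protein-coding genes. In 10 histone genes more than 50% of the windows were repeated. These were Hist1h2bq, Hist1h2ao, Hist1h2ap and Hist1h2br, with all windows repeated, Hist1h4m and Hist1h4n with 89.4 and 86.9%, Hist2h3c2 and Hist2h3c1 with 75.6 and 72.9%, and Hist2h2aa1 and Hist2h2aa2 with 53.0 and 52.0%.

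Of these 10 genes, 6 had a site, 0 had the 5′ end inside a site, and 6.02% of their coding bases lay in sites. Of the other 57 genes, 54 had a site (94.7%), 40 had the 5′ end inside a site (70.2%), and 89.3% of their coding bases lay in sites. Inside the coding sequence, the repeated share of windows in these 57 genes ranged from 0 in Hist2h4 to 100% in Hist1h2ag and Hist1h2ad. In most of them it exceeded the share around the 5′ end, which was 25.9% in Hist1h2ag and 27.7% in Hist1h2ad. Sites covered all coding bases of Hist1h2ag and 37.9% of those of Hist1h2ad. Which reads gave this cover was not tested. At Hist1h4m and Hist1h4n the only site began 292 and 291 bp after the coding start and covered 5.50 and 5.83% of the coding bases. At Hist2h2aa1 and Hist2h2aa2, which lie head to tail with Hist2h3c1 and Hist2h3c2 in an inverted copy, sites flanked the gene and covered no coding base. In these 10 genes, absence of a site over the gene cannot be told apart from reads that could not be placed, and although the authors removed unusable reads by ENCODE's recommendations, the sources used here do not say what was done with reads aligned at several positions.

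The other 3 genes without a site had little repeated sequence, with 3.75% of the windows at Hist3h2ba and 5.25% at Hist1h2ba and at Hist1h2aa. Over the 2 kb around all histone genes, 37.7% of the bases with no unique window lay in sites, compared to 55.8% of the other bases. The part of repeated sequence in the site cover of the other genes was not tested.

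**Figure D5:**
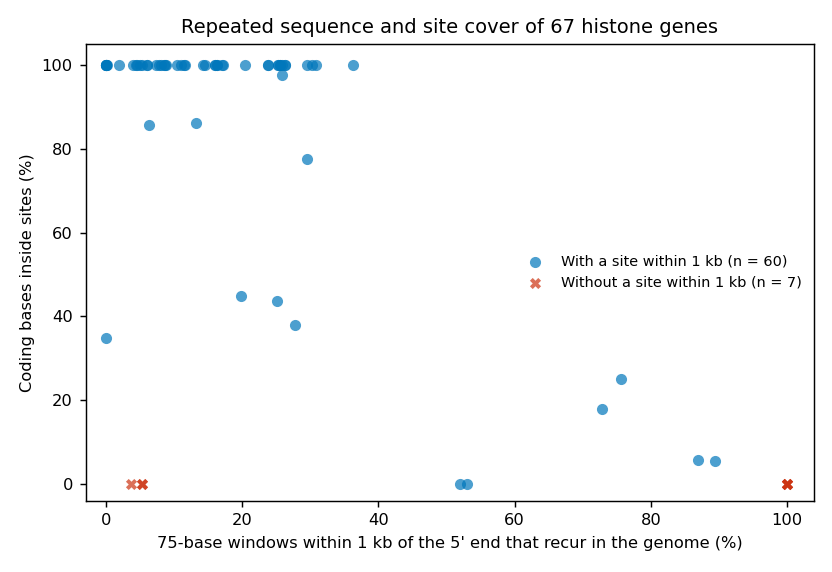
Percent of coding bases inside sites against the percent of 75-base windows within 1 kb of the 5′ end that occur more than once in the genome, for each of the 67 histone genes, with circles for the 60 with a site and crosses for the 7 without. All 10 genes above 50% repeated windows have 25% or less of their coding bases in sites, and 3 of the crosses stand below 6% repeated windows.

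The sequence around the 5′ end of histone genes was rich in CpG, also at genes without a site. In most of them this stretch holds coding sequence as well, so that the values do not describe the promoter alone. The observed to expected ratio of CpG within 500 bp of the 5′ end had a median of 0.879, compared to 0.558 at all protein-coding genes, and was at least 0.6 in 64 of 67 genes (95.5%, compared to 46.3%). The 7 genes without a site had a median of 0.926. Of all protein-coding genes without a site, 15.6% reached 0.6. The GC content was 53.7%, compared to 54.8% at all protein-coding genes.

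Some motifs differed in number between the histone types. Between 250 bases before and 50 bases after the 5′ end, on either strand, CCAAT was found in 56 of 67 genes (83.6%), compared to 38.9% of all protein-coding genes. It was in 18 of 18 H2A and 18 of 18 H2B genes, but in 4 of 13 H4 genes. TATAAA was found in 37 genes (55.2%, compared to 12.7%), and GCAAAT in 24 (35.8%, compared to 10.0%). AAACACA was in 4 of 6 H1 genes, compared to 6.44% of all protein-coding genes. GGTCC was in 31 genes (46.3%), close to the 47.1% of all protein-coding genes, and in 13 of 13 H4 genes. TTTCGCGC, a form of the E2F motif, was in 9 genes (13.4%, compared to 0.354%). TTTGGCGC was in 0 genes.

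In divergent pairs, this window can reach into the promoter of the partner gene. With the 150 bases before the 5′ end alone, CCAAT was again in 18 of 18 H2A and 18 of 18 H2B genes. It was in 4 of 13 H4 genes (30.8%), close to the 27.05% of all protein-coding genes. AAACACA was in 4 of 6 H1 genes, compared to 3.17% of all protein-coding genes. GGTCC was in 12 of 13 H4 genes, compared to 28.4% of all protein-coding genes. For H2A and H2B the other counts depended on the window. GCAAAT was in 9 of 18 H2A and 8 of 18 H2B genes in the longer window, but in 4 and 7 in the shorter one. TTTCGCGC was in 5 H2A and 4 H2B genes in the longer window, but in 4 and 0 in the shorter one.

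In the printed pairs, TATAAA was found in the region of Hist1h2ae and Hist1h2bg and in that of Hist2h2ac and Hist2h2be, both with sites. The regions of Hist1h2bq and Hist1h2ao and of Hist1h2ap and Hist1h2br each had 3 CCAAT boxes and 0 matches to TATAAA or GCAAAT. The pairs of Hist1h2bl and Hist1h2ai, Hist1h2ag and Hist1h2bj, and Hist1h2bf and Hist1h2ad also had 0 matches to both, but had sites. The remaining pairs with sites each held TATAAA. Between Hist1h2ba and Hist1h2aa, a pair without a site, TATAAA was found 2 times and GCAAAT 1 time. The upstream sequence of Hist3h2ba had TATAAA on both strands. That of Hist1h2ba had TATAAA at 94 bases before the 5′ end and that of Hist1h2aa at 57 bases before it. Each of these genes, without a site and with little repeated sequence, thus held these letters.

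The stem-loop of the 3′ end was also within the marked stretch in most genes. A stem-loop was taken as a 6-base stem that starts with GG and a 4-base loop that starts with TTT. The search covered 100 bases after the coding sequence and 100 bases on either side of each annotated transcript end. A match was found in 63 of 67 genes, compared to 10 other protein-coding genes (0.0461%). Hist2h2be, Hist1h2an, Hist1h3g and Hist1h4a had no match. The stem-loop began at a median of 34 bases after the coding sequence. The forms below are the commonest, in 41 genes, the second, in 9, and those of H4 genes. Capitals mark the stem-loop.
Hist1h2bg, chr13:23571838-23571863, plus strand: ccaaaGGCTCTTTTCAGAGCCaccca
Hist1h3c, chr13:23745042-23745067, minus strand: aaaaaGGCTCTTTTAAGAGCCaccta
Hist1h4d, chr13:23581945-23581970, plus strand: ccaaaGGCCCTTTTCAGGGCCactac
Hist2h4, chr3:96262934-96262959, minus strand: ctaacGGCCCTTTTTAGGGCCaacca
Hist1h4j, chr13:21735432-21735457, plus strand: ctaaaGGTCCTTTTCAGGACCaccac

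The stem-loop lay inside a site in 54 of the 63 genes (85.7%). In 42 genes a single site covered both the coding start and the stem-loop, and it ended a median of 257.5 bp past the stem-loop, with quartiles of 111.25 and 609.75 bp. It ended within 200 bp of the stem-loop in 19 of the 42. Such sites thus reached from before the coding start to beyond the stem-loop, but not always to the annotated end of the gene. Wholly inside sites were 24 of the 67 annotated genes, and the median gene had 86.1% of its bases in sites. Of all bases of the 67 genes pooled, 36.0% lay in sites. Long annotated genes weigh heavily in the pooled share, such as Hist1h2be with 37455 bp, of which 7.52% lay in sites.

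Histone variant genes, which are also expressed outside S phase and many of which have introns, had wider sites when sites were not merged. All 11 had a site, with a median width of 1127.5 bp over 16 sites, compared to 593 bp at the replication-dependent genes. Merging sites less than 1 kb apart gave 2322.5 bp at the replication-dependent genes and was not computed for the variant genes. H2afy2 had 2013 bp, H1fx 2007 bp and H2afv 558 bp as the widest site. H2afx, which shares the stem-loop, had 2 sites of which the wider measured 1650 bp. Genes that serve histone expression had a site in 12 of 12 cases, with a median width of 733 bp over 22 sites. The widest site was 1452 bp at Slbp, 908 bp at Npat, 1116 bp at Lsm11 and 806 bp at Lsm10, both parts of the U7 snRNP.

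The annotated 5′ end limits these positions. In 11 histone genes it was the coding start itself, without any 5′ untranslated bases. In Hist1h1d it was 1828 bp and in Hist1h2be 35168 bp before the coding start used here. The site over the Hist1h2be coding sequence measured 1092 bp and began 6 bp before the coding start, but the 2 sites counted for it within 1 kb of a TSS, of 1277 and 522 bp, were at far upstream TSSs near Hist1h1e.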

How the data were processed

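H3K27ac ChIP-seq reads were trimmed by the authors (Trim Galore) and aligned to mm10 with BWA. SAMtools served to filter and sort the alignments and Picard to merge the replicates, and MACS was then used for narrow peaks. The authors deposited the joined sites as positions in base pairs, with other values such as counts not given, and how peaks were joined was not given in the sources used here. Labels put 14 libraries in 8 groups, which the list does not separate, so that no test between groups was made.

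Start positions were read as counted from 0 and are printed counted from 1. Genes were from GENCODE M21 on GRCm38.p6, an earlier release than that of the authors. Sites were assigned by their middle within 1 kb of any TSS. The coding sequence was the longest one, for histone genes that of the form with the fewest coding exons, a choice made after the values were seen. Repeated 75-base windows and motifs were searched on both strands of the RefSeq sequence, and stem-loops on the strand of the gene. The procedures were tested on simulated data. Python 3.11.15, pandas 2.3.3, NumPy 2.4.6, SciPy 1.17.1, numba 0.67.0 and matplotlib 3.10.9 were used.

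The genes and lists were chosen with earlier results of these data known. Any histone gene could be named, with the widest and narrowest sites of each type, the genes without a site and those at the limit first, and other genes of the clusters where 10 or fewer had a site. Alternatives comprised windows of 0.5 and 2 kb, any overlap, the 5′ end alone, RefSeq starts, omission of the narrowest 25% of sites, merging of sites less than 1 kb apart, gaps of 100 and 500 kb between sub-clusters, omission of testis-specific genes or of genes without a stem-loop, and 150 bases as the promoter.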

Additional observations from a re-analysis of the deposited data

How the results depend on the processing

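No paired analysis was possible because samples were joined and sites carry no value for any of them. Of 94 values recomputed under an alternative, 71 stayed within the interval of the main value (for widths, the binomial interval of the median) and 23 moved beyond it. With a window of 0.5 kb, 65.7% of the histone genes had a site (all protein-coding genes 50.1%), with 33.3% for H1, 66.7% for H3, 76.9% for H4, 74.2% in the second sub-cluster on chromosome 13, 40.0% on chromosome 3 and 0 on chromosome 11. With a window of 2 kb, the H2A share was 94.4%. Merging sites less than 1 kb apart gave 70.1% of genes with a site (all protein-coding genes 50.7%), a 5′ end inside a site in 80.6% (44.6%), coding bases in sites of 86.1%, and a median width of 2322.5 bp (1478 bp), with 3504.5 bp for H2A, 2812 bp for H2B, 3843 bp for H3 and 2140.5 bp for H4, so that the width at histone genes was then above that at all protein-coding genes. By construction, merging joins the sites on both sides of the upstream gap and shifts their middles. A gap of 100 kb split the first sub-cluster on chromosome 13, where the later part had 100%, and the second, where the parts had 100% and 0, the latter being Hist1h2ba and Hist1h2aa. With 150 bases as the promoter, TATAAA was in 40.3% of the histone genes (all protein-coding genes 7.24%), GCAAAT in 23.9% (5.05%), GGTCC in 31.3% (28.4%) and TTTCGCGC in 5.97% (0.198%). The longest coding sequence, an alternative added after seeing the data, differed in 3 genes and left 45 in place of 46 genes with the coding sequence wholly in sites. RefSeq starts, which were within 100 bp of the GENCODE 5′ end in 66 of 67 genes, moved none of the 3 values computed with them. These values covered all histone types together, and the call for the 5′ end changed in single genes. The unknown depth and the unknown threshold of the peak calling limit what the absence of a site shows.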

Other observations

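Of 3 annotated histone pseudogenes, 2 had sites, all of which were also near functional histone genes. Hist1h2aj, 236 bp from the nearest histone gene 5′ end, had 2 sites of 887 and 575 bp, both counted at histone genes above. Hist3h2bb-ps, 173 bp from Hist3h2a, had the site of 1215 bp of that gene. Hist1h2al, a processed copy far from the clusters on chromosome 13, had 0 sites.

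Outside the replication-dependent genes, the 10 protein-coding genes with a stem-loop match comprised H2afx and H2bfm, which are histone genes, and Cdc40, Lctl, Myh3, Nxt2, Prkcd, R3hcc1, Tal1 and Ttc14. Of the 10 genes, H2bfm, Myh3 and Tal1 had no site within 1 kb of a TSS. Whether these matches are processed as histone 3′ ends was not tested.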
